A study of Mus musculus with 3 samples.

Results

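The peaks of Ad4BP/SF-1 described here lie around 6 genes that bring cholesterol into the cell from lipoproteins or release it from lysosomes, Scarb1, Lrp1, Scarb2, Npc1, Npc2 and Lipa. Ad4BP/SF-1 is the nuclear receptor that controls steroidogenic genes in the testis and adrenal cortex. It was immunoprecipitated from Leydig cells, the androgen-producing cells of the testis, and the bound DNA was sequenced. The cells were purified on Percoll from pooled testes of ICR males aged 9 weeks and received vehicle or cAMP. Both groups share this origin, and there was 1 library for each, so replicate error could not be measured and no test between vehicle and cAMP was made. The compound, dose and duration behind the label cAMP are not given in the sources used here. Expression was not analysed here, so the Leydig cell label was not checked against marker genes.

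A gene's peaks were those that overlapped its body or the 50 kb on either side, and this rule was met by 13 of 5721 vehicle peaks and 9 of 4025 cAMP peaks. The value listed for a peak is the score of MACS, −log10 of the p-value multiplied by 10. Vehicle scores ran from 50 through a median of 72.39 to 904.96, and cAMP scores from 50.01 through 67.85 to 803.27. How deeply each library was sequenced is unknown, since reads are not counted in the lists. Because the score grows with depth, most scores are given with the percent of peaks of the same list that scored lower. Scores given without this percent are not for comparison between the lists. A region without a peak is absent from the list and was not shown to be free of Ad4BP/SF-1.

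Steroid-producing cells draw cholesterol from several sources. HDL particles dock on SR-BI, the product of Scarb1, which passes their cholesteryl esters to the cell without taking up the particle. Other lipoprotein particles are internalized by endocytic receptors, of which the product of Lrp1 is a large and broadly expressed one. In the lysosome, the acid lipase encoded by Lipa hydrolyzes the cholesteryl esters, the soluble protein encoded by Npc2 takes up the free cholesterol, and the membrane protein encoded by Npc1 exports it. The product of Scarb2, LIMP-2, is a lysosomal membrane protein of the same family as SR-BI.

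In vehicle-treated cells, 4 of the 6 genes (Scarb1, Lrp1, Npc1 and Lipa) had a peak in their windows, beside 36.7% of all 21938 protein-coding genes. In cAMP-treated cells, 4 genes (Scarb1, Lrp1, Scarb2 and Npc1) did, beside 28.9% of all genes. With only peaks that score at least 75, this count fell to 2 (Scarb1 and Lrp1), beside 14.56%. Peaks of both lists were found for 3 genes, beside 22.5%, and a peak of at least 1 list for 5, beside 43.1%. Npc2 was the gene without a peak. Genes with more DNA have more room for a peak, and the 6 genes had a median length of 55.36 kb, whereas the median of all protein-coding genes was 17.42 kb. Among the 2515 genes of 50 to 100 kb, 43.42% had a vehicle peak and 36.5% had a cAMP peak.

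Most of the peaks belonged to Scarb1 and Lrp1, which together held 11 of 13 vehicle peaks and 7 of 9 cAMP peaks. Scarb1 had 6 vehicle peaks and 3 cAMP peaks, and Lrp1 had 5 and 4. At least 5 vehicle peaks lay around 0.975% of all protein-coding genes, and at least 3 cAMP peaks around 2.65%. In the length class of both genes, 50 to 100 kb, these shares were 1.233% and 3.738%. Both genes held 4 vehicle peaks inside the gene body, and 0.378% of all genes and 0.596% of the genes of 50 to 100 kb held at least as many. These limits were taken from the counts of the genes themselves after they had been seen.

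**Figure D1:**
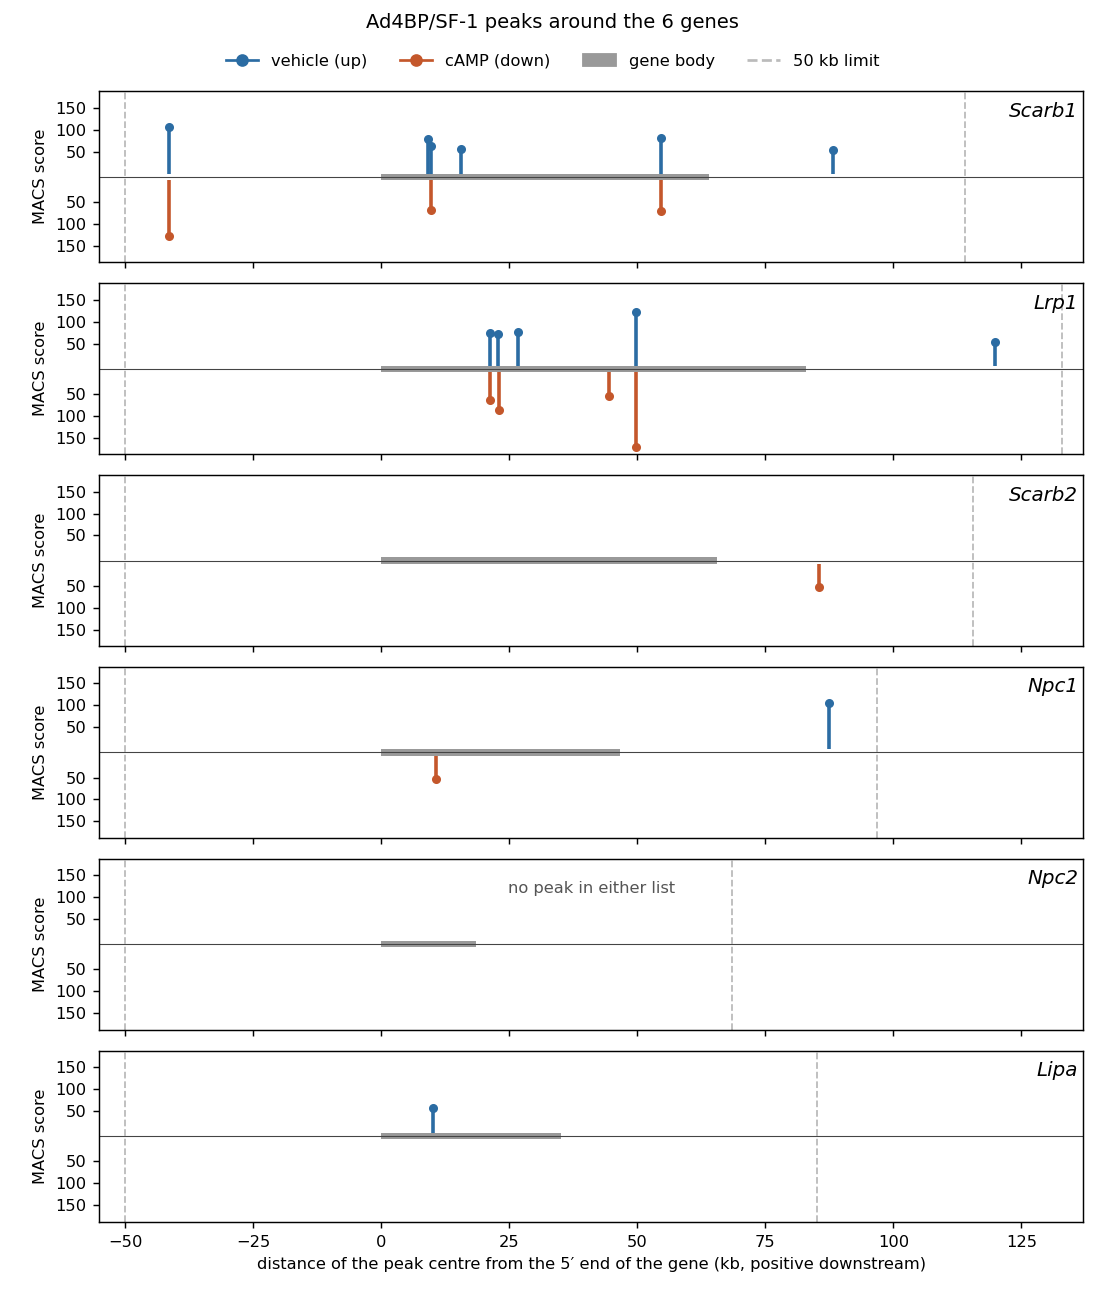
Positions and MACS scores of the peaks around the 6 genes, with the distance of the peak centre from the 5′ end of the gene in kb on the x axis and the score on the y axis, vehicle peaks drawn upward and cAMP peaks downward from the gene body (grey bar). Scarb1 and Lrp1 carry 11 of the 13 vehicle peaks, no peak lies at a 5′ end, and Npc2 has none.

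**Figure D2:**
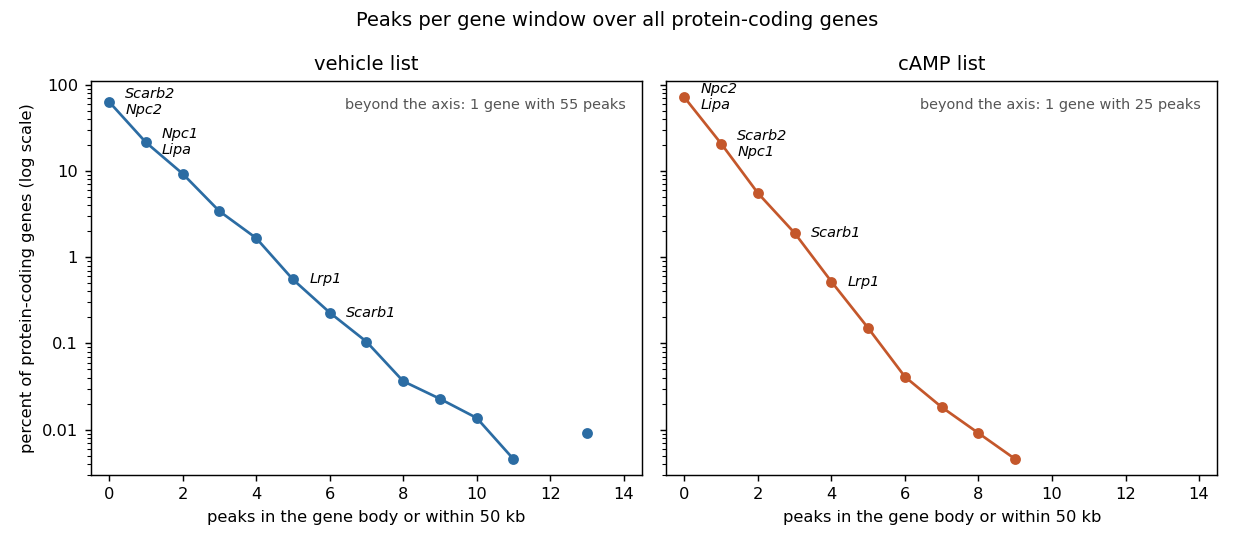
Percent of all 21938 protein-coding genes (log scale) by the number of peaks in the gene body or within 50 kb, for the vehicle and the cAMP list, with the 6 genes named at their counts. Scarb1 and Lrp1 lie at 6 and 5 vehicle peaks and at 3 and 4 cAMP peaks, whereas the other genes have 0 or 1 peak.

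None of the 22 peaks lay within 1 kb of the 5′ end of its gene. The nearest was the vehicle peak 9.071 kb downstream of the 5′ end of Scarb1, and the median distance was 26.63 kb for vehicle peaks and 41.43 kb for cAMP peaks. Inside the gene bodies lay 9 of 13 vehicle peaks and 7 of 9 cAMP peaks. All others were in the flanks, and of these, the peaks upstream of Scarb1 were the only ones on the 5′ side. The start site of another protein-coding gene was nearer for 5 vehicle and 4 cAMP peaks.

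The peaks fell on 16 sites, of which 6 had peaks in both lists, 7 were called with vehicle alone and 3 with cAMP alone. All 6 sites of both lists belonged to Scarb1 and Lrp1. A counterpart in the other list, meaning at least 1 shared bp, was thus found for 6 of 13 vehicle peaks, a share of 46.15% (19.22% to 74.87%, exact Clopper-Pearson interval at the 95% level), and for 6 of 9 cAMP peaks, or 66.67% (29.93% to 92.51%). Over the whole lists the shares were 37.9% for vehicle and 53.8% for cAMP, and both values lie within these intervals, which cover counting error only. The intervals treat peaks as independent, although most lie around Scarb1 and Lrp1. Both counts of peaks with a counterpart also come from the same 6 sites, so the intervals serve as description only. At the 6 sites the centres of the paired peaks were 8 to 48 bp apart. The cAMP peak stood higher in its list than the vehicle peak in its own at 4 of the sites and lower at 2. Over all 2171 overlapping pairs it stood higher in 44.5%, and with 6 sites a departure from this share cannot be read.

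Ad4BP/SF-1 binds as a monomer to an 8-base sequence, which was searched here on both strands as the words CCAAGGCC, CCAAGGTC, TCAAGGCC and TCAAGGTC. At least 1 of these words occurred in 10 of 13 vehicle peaks, or 76.92% (46.19% to 94.96%), beside 80.4% of the whole list. It was present in 7 of the 9 cAMP peaks, or 77.78% (39.99% to 97.19%), beside 77.1%. The share of these peaks with the consensus was therefore near that of any peak. The bases printed for the sites are those of the reference strain, C57BL/6J, and the ICR mice may differ from them.

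Scarb1 (ENSMUSG00000037936.15) lies on the minus strand of chromosome 5, from 125277087 to 125341094 of mm10. Its highest peaks were not inside the gene but 41.4 kb upstream of the 5′ end. There the vehicle peak (chr5:125382186-125382807) had a score of 105.39, above 75.97% of its list, and the cAMP peak (chr5:125382178-125382874) had a score of 127.69, above 87.35%. The peaks shared 622 bp. The nearest start site was that of the predicted gene Gm10382, 6.826 kb from the centre of the vehicle peak.

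Intron 1 of Scarb1 held 3 vehicle peaks and 1 cAMP peak. The vehicle peak 9.071 kb downstream of the 5′ end (chr5:125331741-125332306) had a score of 78.57, above 57.11% of its list, and the one 9.681 kb downstream (chr5:125331229-125331598) had a score of 62.43, above 33.58%. In the cAMP list a single peak (chr5:125331140-125331670, score 68.93, above 51.7%) contained the latter and ended 71 bp short of the former, which therefore counted as a peak without a counterpart. The third vehicle peak, 15.57 kb downstream (chr5:125325323-125325731, score 56.65), also lay within an exon of a transcript annotated as a retained intron, and the nearest cAMP peak was 5.409 kb away.

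Intron 9, 54.68 kb from the 5′ end and towards the 3′ end of Scarb1, had peaks in both lists. The vehicle peak (chr5:125286113-125286712) had a score of 80.06, above 58.98% of its list, and the cAMP peak (chr5:125286089-125286685) had a score of 72.14, above 56.3%. Both overlapped an exon of another transcript of the retained-intron type. The last vehicle peak (chr5:125252674-125253109, score 53.05) lay 23.98 kb beyond the 3′ end within the noncoding gene Gm32585 and was 29.74 kb from the nearest cAMP peak. Just outside the window, the next vehicle peak lay 51.77 kb from the gene body with a score of 62.06, and the next cAMP peak 54.15 kb from it with a score of 59.57.

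The consensus was present in 5 of the 6 vehicle peaks and in all 3 cAMP peaks of Scarb1, once in each. The sequences of the sites with the highest scores and of the neighbouring peaks of intron 1 are shown because they allow the words to be compared between sites of both lists and a site of the vehicle list alone. The 8 bases in capitals are the consensus, and 30 bases are given on either side, from GRCm38, which has the coordinates of mm10.
Scarb1 upstream, both lists, chr5:125382493-125382560, plus strand: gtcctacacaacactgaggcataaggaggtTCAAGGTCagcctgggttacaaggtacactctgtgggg
Scarb1 intron 1 at 9.681 kb, both lists, chr5:125331458-125331525, plus strand: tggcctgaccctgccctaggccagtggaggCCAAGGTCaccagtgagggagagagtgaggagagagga
Scarb1 intron 1 at 9.071 kb, vehicle list alone, chr5:125332013-125332080, plus strand: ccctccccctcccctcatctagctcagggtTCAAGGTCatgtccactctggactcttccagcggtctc
Scarb1 intron 9, both lists, chr5:125286361-125286428, plus strand: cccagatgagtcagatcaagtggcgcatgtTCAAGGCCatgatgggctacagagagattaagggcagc
The upstream site, the site at 9.071 kb and the vehicle peak at 15.57 kb, above 19.98% of its list, held TCAAGGTC. The same word was the most frequent of the 4 over all peaks, found in 2363 vehicle and 1664 cAMP peaks. In the upstream peaks the word lay 31 bp from the vehicle centre and 1 bp from the cAMP centre, in sequence that the reference marks as repetitive. The peak beyond the 3′ end held no copy of the consensus.

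Lrp1 (ENSMUSG00000040249.15) lies on the minus strand of chromosome 10, from 127538161 to 127621148. The highest scores of all 6 genes were found here, at exon 34, a coding exon 49.74 kb from the 5′ end. The vehicle peak (chr10:127571119-127571704) scored 122.73 and ranked 1001 in its list, above 82.5% of the peaks. The cAMP peak (chr10:127571053-127571681) scored 170.44 and ranked 236, above 94.14%. Both contained the whole exon of 135 bp and parts of introns 33 and 34. The start site of Nxph4, which encodes a secreted neurexophilin, was nearer to the vehicle centre (36.85 kb) than that of Lrp1.

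Closer to the 5′ end, intron 6 of Lrp1 carried a pair of sites present in both lists. At the site 22.9 kb from the 5′ end, the vehicle peak (chr10:127597960-127598538) scored 70.64 and the cAMP peak (chr10:127597956-127598447) scored 87.73, above 47.44% and 70.06% of their lists. This was the widest gap in list position among the 6 paired sites. At the site 21.21 kb from the 5′ end, the vehicle peak (chr10:127599682-127600187) scored 74.51 and the cAMP peak (chr10:127599813-127600122) scored 64.1, above 52.81% and 43.7%. The cAMP peak was thus higher in its list at one of these neighbouring sites and lower at the other. The latter site overlapped exon 7 of another protein-coding transcript, almost all of which is untranslated there.

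The remaining peaks of Lrp1 were found in a single list. In intron 8, a vehicle peak (chr10:127594250-127594782) had a score of 76.96, and the nearest cAMP peak was 3.174 kb away. In the cAMP list, a peak that spanned intron 23 and parts of coding exons 23 and 24 (chr10:127576473-127576933) had a score of 54.21, and the nearest vehicle peak was 4.769 kb away. The start site of Nxph4 was nearer to it (42.14 kb) than that of Lrp1 (44.45 kb). A vehicle peak 36.7 kb beyond the 3′ end (chr10:127500970-127501456) had a score of 52.63 and lay 0.473 kb from the start site of Stac3, which encodes a protein of excitation-contraction coupling in skeletal muscle. It is the only peak of the 22 within 1 kb of the start site of any protein-coding gene.

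The peaks at exon 34 held no copy of the consensus in either list, although they had the highest scores. The same was true of the vehicle peak in intron 8, the cAMP peak at exons 23 and 24, and the vehicle peak beyond the 3′ end of Scarb1. After this had been seen, these peaks were searched for the first 7 bases of the same 4 words, and each of the 5 peaks held at least 1. Among all peaks without the consensus, 41.62% of 1122 (vehicle) and 32.43% of 922 (cAMP) did. The vehicle and cAMP peaks at exon 34 overlap and share words, so the 5 peaks are not separate sites. Because the search was chosen on these same peaks, the shares are set beside them as description only. At exon 34 the copy nearest to the centre, TCAAGGCT, lay in intron 34, 37 bp from the vehicle centre and 7 bp from the cAMP centre. Counted from the 5′ end of the word, it differed from TCAAGGCC by C8T. The word in intron 8, TCAAGGTT, 21 bp from the centre, differed from TCAAGGTC by C8T as well, and the word between exons 23 and 24, TCAAGGTG, 87 bp from the centre, by C8G. The words in the Scarb1 peak lay 84 and 56 bp from its centre. The words named for Lrp1 are shown in capitals, with the intron 6 site at 22.9 kb, which holds the consensus, for comparison.
Lrp1 intron 34 next to exon 34, both lists, chr10:127571340-127571407, plus strand: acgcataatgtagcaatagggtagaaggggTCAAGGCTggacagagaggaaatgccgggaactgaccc
Lrp1 intron 8, vehicle list alone, chr10:127594461-127594528, plus strand: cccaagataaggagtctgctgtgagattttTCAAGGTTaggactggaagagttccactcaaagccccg
Lrp1 intron 23, cAMP list alone, chr10:127576756-127576823, minus strand: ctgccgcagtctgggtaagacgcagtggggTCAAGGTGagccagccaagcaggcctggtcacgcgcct
Lrp1 intron 6, both lists, chr10:127598190-127598257, plus strand: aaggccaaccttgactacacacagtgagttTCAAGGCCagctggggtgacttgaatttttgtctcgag
The site at 22.9 kb held a further copy, CCAAGGCC, and the site at 21.21 kb held 1 copy of CCAAGGCC, within that untranslated stretch.

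**Figure D3:**
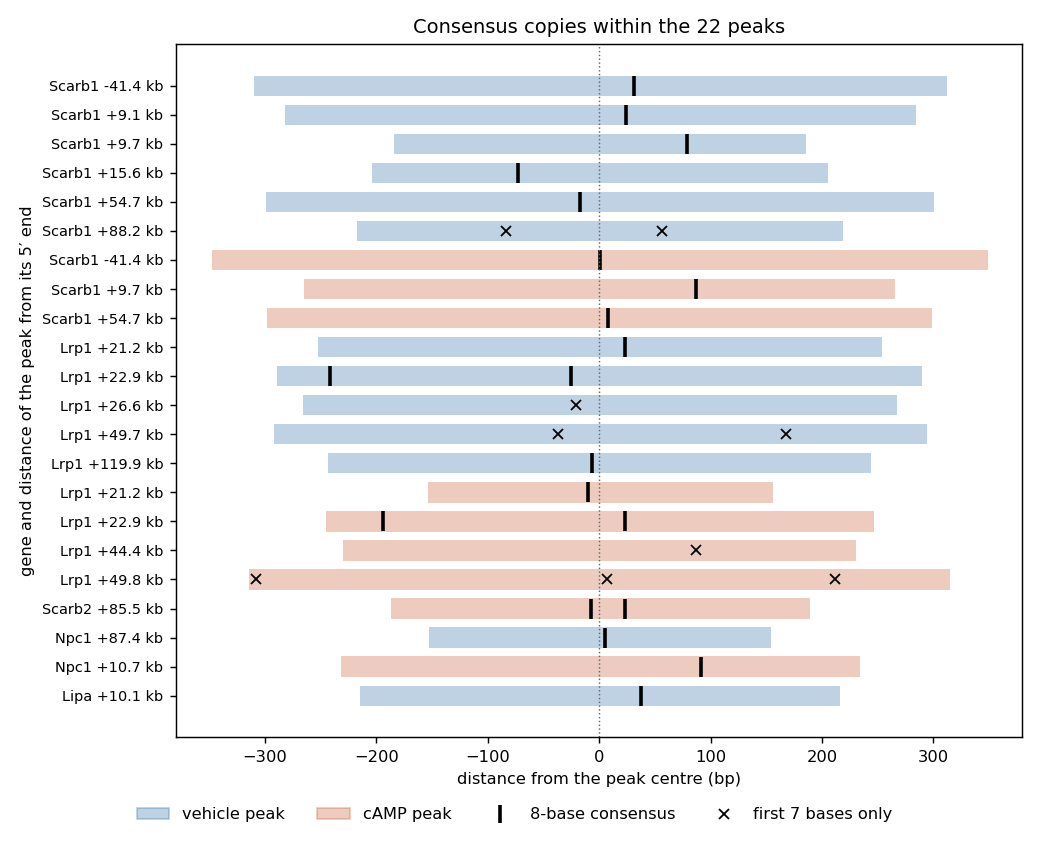
Copies of the 8-base consensus (vertical marks) and, in peaks without it, of its first 7 bases (crosses), by distance from the peak centre in bp, with a bar for the extent of each of the 13 vehicle and 9 cAMP peaks. Most copies lie near the centre, with a median distance of 25 bp in vehicle and 23 bp in cAMP peaks, and 5 peaks carry crosses in place of marks.

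Scarb2 (ENSMUSG00000029426.8) lies on the minus strand of chromosome 5, from 92441314 to 92506833, and had no vehicle peak. The nearest one lay 234.7 kb from the gene body with a score of 60.42. Its cAMP peak (chr5:92421104-92421479) had a score of 53.49, above 14.88% of the list, and lay 19.84 kb beyond the 3′ end. The peak was placed in intron 8 of Nup54, a gene for a nuclear pore protein, whose start site was 13.93 kb from the centre, compared with 85.54 kb for that of Scarb2. The peak held 2 copies of the consensus, 7 and 23 bp on either side of its centre, both in sequence marked as repetitive, and they are shown because no other of the 22 peaks held copies so close to each other.
Scarb2 flank in Nup54, cAMP list alone, chr5:92421250-92421347, minus strand: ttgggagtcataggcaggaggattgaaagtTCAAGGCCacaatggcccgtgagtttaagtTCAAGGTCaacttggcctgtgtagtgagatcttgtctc

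Lipa (ENSMUSG00000024781.16) lies on the minus strand of chromosome 19, from 34492318 to 34527474. A single vehicle peak (chr19:34517173-34517603) was found in intron 3, 10.09 kb from the 5′ end, with a score of 56.96, above 20.92% of the list. The nearest cAMP peak lay 369.6 kb from the gene body and had a score of 61.86. The vehicle peak held 1 copy of the consensus, 38 bp from its centre. It is shown because this is the only peak within the gene body of a lysosomal enzyme among the 6 genes.
Lipa intron 3, vehicle list alone, chr19:34517392-34517459, minus strand: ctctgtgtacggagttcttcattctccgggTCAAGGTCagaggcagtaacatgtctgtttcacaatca

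Npc2 (ENSMUSG00000021242.9), on chromosome 12 from 84754562 to 84773152, had no peak in either list. The nearest vehicle peak lay 190.1 kb from the gene body with a score of 130.79, and the nearest cAMP peak lay 190.0 kb from it with a score of 168.55. The window of Npc2 held 42 copies of the consensus, none of them within a peak.

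Npc1 (ENSMUSG00000024413.14) lies on the minus strand of chromosome 18, from 12189692 to 12236400. It had 1 peak in each list, at different sites. The vehicle peak (chr18:12148861-12149167) had a score of 105.37, above 75.95% of the list, and was the highest of the vehicle peaks without a counterpart. It lay 40.52 kb beyond the 3′ end, in intron 8 and exon 8 of Riok3, which encodes an atypical kinase, and the nearest start site was that of Rmc1, which encodes a factor of late endosome and lysosome traffic, 19.7 kb away. The cAMP peak (chr18:12225478-12225943) lay in intron 1 of Npc1, 10.69 kb from the 5′ end, with a score of 53.58, above 15.16% of the list. Each held 1 copy of the consensus, 5 bp from the centre in the vehicle peak and 91 bp in the cAMP peak. Just outside the window, peaks of both lists lay 68.23 kb (vehicle, score 91.41) and 68.25 kb (cAMP, score 86.27) from the gene body.

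The 3 peaks that were found in the cAMP list alone, at Lrp1, Scarb2 and Npc1, had scores of 54.21, 53.49 and 53.58, close to the lower end of the list. In the whole cAMP list, 28.86% of the 1424 peaks that score from 50 to 60 had a vehicle counterpart, whereas 94.77% of the 344 that score 150 or more did. The 7 peaks found in the vehicle list alone were spread more widely. Of these, 4 scored from 50 to 60, where 16.97% of the whole vehicle list had a counterpart. Another 2 scored 76.96 and 78.57, within the range of 75 to 100, where 39.74% did. The Npc1 peak scored 105.37, within the range of 100 to 150, where 56.98% did. By contrast, the 12 peaks of the 6 paired sites lay above 33.58% to 94.14% of their lists.

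**Figure D4:**
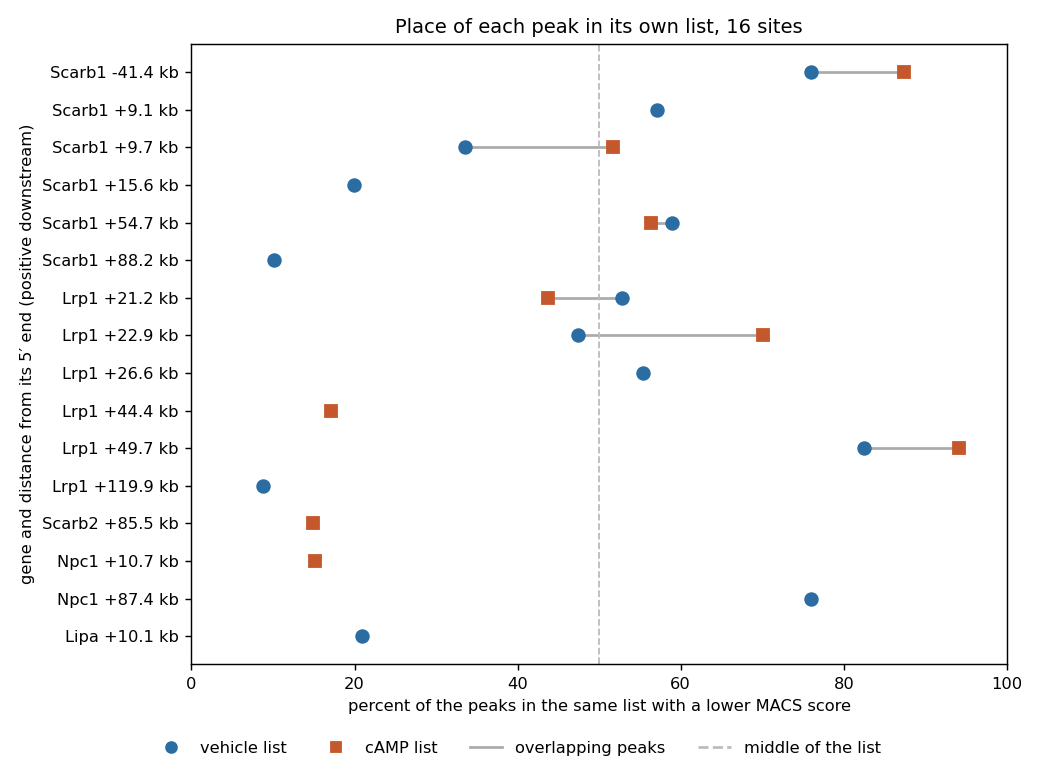
Percent of the peaks of the same list with a lower MACS score, for each of the 16 sites, with vehicle peaks as circles, cAMP peaks as squares and overlapping peaks joined by a line. The cAMP peak stands higher in its list at 4 of the 6 joined sites, and the 3 cAMP peaks without a counterpart lie at the lower end.

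Copies of the consensus were far more numerous than peaks. The 6 windows, 913 kb in all, held 262 copies, or 2.87 per 10 kb, beside 1.84 per 10 kb in the genome. The density ranged from 1.406 per 10 kb at Lipa to 4.085 per 10 kb at Scarb1. Of the 262 copies, 14 lay in a peak of at least 1 list, or 5.344%, and 1.543% of the 487156 copies in the genome did. Scarb1 and Lrp1, which had most of the peaks, held 5 and 4 of the 14, and Npc2 held none. The genome includes DNA far from genes, and the windows of all genes were not used for comparison here. These densities and shares are therefore not of like regions. Among the copies in peaks, 3 of 11 (vehicle) and 4 of 9 (cAMP) were in sequence that the reference marks as repetitive, beside 36.1% and 40.87% over the whole lists. The peaks were called from reads with a single position, so repeats that reads cannot be assigned to are not represented.

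Sequences of other factors were searched in the same way. The core of the cAMP response element, TGACG, was present in 1 vehicle peak and 3 cAMP peaks, beside 18.74% and 17.91% of the whole lists. The upstream site of Scarb1 held it in both lists, and the other cAMP peaks with it were those at exons 23 and 24 of Lrp1 and in the flank of Scarb2. The exact intervals of these shares, 0.195% to 36.03% and 7.485% to 70.07%, include the values of the whole lists. The AP-1 sequence TGANTCA was present in 2 vehicle peaks and 1 cAMP peak, beside 21.55% and 23.18%. The GATA sequence AGATAA was found in 3 and 2 peaks, beside 25.89% and 23.65%, and the CCAAT box in 5 and 5, beside 46.65% and 45.07%. The GC box GGGCGG was found in 1 and 1, beside 13.32% and 9.789%. AAAGGTCA, the site of other monomeric nuclear receptors, shares the run AAGGTC with CCAAGGTC and TCAAGGTC. It was not in any of the 22 peaks, beside 3.915% and 3.528% of the lists.

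The promoters, taken as the 250 bases before and 50 bases after the start site in RefSeq on GRCm38, were available for Lrp1, Scarb2, Npc2 and Lipa. None of these 4 windows held the consensus, which was present in 5.726% of all 32851 promoters, and 4 windows are too few to differ from this share. With the first base of the consensus left out, the sequence was found once in the Npc2 window, beside 9.881% of all promoters. No peak overlapped the 4 windows.

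Among 37 related genes, peaks of the vehicle list were found around 18, of the cAMP list around 16, and of both lists around 13, beside the 36.7%, 28.9% and 22.5% of all protein-coding genes given for the 6 genes. Of the 17 lipoprotein receptors and their partners, which had a median length of 74.58 kb, 7 had a vehicle peak, 7 a cAMP peak and 4 both, and in the class of 50 to 100 kb the shares of all genes were 43.42% for vehicle and 36.5% for cAMP. Lrp4, Lrp5 and Lrp6 were among the genes with both. Lrp5 and Lrp6 encode coreceptors of Wnt ligands. The highest peak of Lrp6 scored 423.41 with vehicle and 133.6 with cAMP, above 99.34% and 88.57% of their lists. That of Lrp5 scored 148.09 and 293.53, above 88.74% and 98.81%, so that the order of Lrp5 and Lrp6 was reversed between the lists. Lrp4 had 1 peak in each list, with scores of 74.94 and 64.16, above 53.28% and 43.8%, and these lay 30049 and 30074 bp outside its body.

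Of the 20 genes of the lysosome and of cholesterol exit from it, which had a median length of 26.97 kb, 11 had a vehicle peak, 9 a cAMP peak and 9 both. In the class of 20 to 50 kb, 40.06% of all genes had a vehicle peak and 30.55% a cAMP peak. Ctsl and Psap, which encode cathepsin L and the precursor of the saposins, had 2 peaks in each list. The highest scores were 90.56 with vehicle and 161.25 with cAMP for Ctsl, above 68.19% and 93.02% of the lists, and 110.38 and 74.85 for Psap, above 78.19% and 59.4%. Lamp1, which encodes a major membrane protein of the lysosome, had highest scores of 124.86 and 142.74, above 83.03% and 90.16%. For Tfeb, which encodes a transcription factor that activates lysosomal genes, they were 107.54 and 52.37, above 76.94% and 11.16%. The peaks of Tfeb did not overlap between the lists. Its vehicle peak lay 49711 bp outside the gene body, near the limit of the window, and its cAMP peak lay inside the body. The vehicle peaks of Lamp1 also lay outside its body, at least 26691 bp away.

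Osbpl2, Anxa6, Gramd1b and Tmem97 were further genes of this group with peaks in both lists. Of the other sterol transfer genes in it, Stard3, Osbp, Osbpl1a, Osbpl5 and Gramd1c had no peak in either list, and Gramd1a had 2 vehicle peaks and no cAMP peak. The choice to name genes without peaks in both lists was made with their values in view. Gramd1b, whose product carries cholesterol from the plasma membrane to the endoplasmic reticulum, had 2 vehicle and 4 cAMP peaks inside its body of 238.2 kb, with highest scores of 115.7 and 123.29, above 79.79% and 86.39% of the lists. Anxa6, which encodes an annexin, had 5 vehicle and 3 cAMP peaks, with highest scores of 115.74 and 137.22, above 79.85% and 89.17%. Osbpl2, which encodes an oxysterol-binding protein homologue, had highest scores of 90.19 and 117.94, above 67.98% and 84.55%. None of its peaks lay inside its body, and the nearest were 43348 bp (vehicle) and 43375 bp (cAMP) from it. Tmem97, which encodes a binding partner of the Npc1 protein, had 1 peak in each list with scores of 51.17 and 61, above 3.898% and 37.61%.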

How the data were processed

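The authors sequenced 1 library of Ad4BP/SF-1 ChIP DNA for each treatment. Reads were mapped to mm10 with up to 3 mismatches, reads with a single position were kept, and peaks were called with MACS without its shift model. The submitters' processing notes name Bowtie 0.12.8. The score in the deposited lists is the authors' value, and the lists begin at a stricter p-value than the limit stated for peak calling, so regions between these limits are not in them. Whether the input was the control is not given in the sources used here, and the input was not analysed here.

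From the lists, overlaps with genes of GENCODE M21 and between lists were computed in Python 3.11.15 (pandas 2.3.3, numpy 2.4.6). Sequences were read with samtools 1.23.1 and intervals came from scipy 1.17.1. Plots were drawn with matplotlib 3.10.9. Functions were tested on simulated data. Each gene was described with every peak in its window, each related gene with a peak in both lists was named, and so was any protein-coding gene with a start site nearer to a peak, apart from some genes that are not reported here. The genes, lists and alternatives were chosen with earlier results of these data known. The alternatives were other windows, score limits, overlap rules and consensus words. Coordinates count from 1.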

Additional observations from a re-analysis of the deposited data

How the results depend on the processing

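Of the 44 alternatives, 36 left a count within 1.5 times its value, and 8, all limits on the score, moved it further. The counts of genes are small, so a change by a single gene stayed within this limit. Npc1 had no vehicle peak and Scarb2 no cAMP peak with the gene body only or 10 kb on either side. The same held with only peaks nearest to the start site of the gene itself. With 20 kb on either side, only the vehicle peak of Npc1 was lost. The shares of all genes in these settings are not given here. With only peaks that score at least 75, or at least 100, the genes with a cAMP peak fell from 4 to 2, beside 14.56% and 9.121% of all genes, and those with a peak of either list from 5 to 3, beside 25.93% and 17.03%, because fewer peaks remained. At a limit of 75, counterparts were found for 2 of 6 vehicle peaks and 2 of 3 cAMP peaks, beside 37.32% and 61.41% of the lists, and at 100 for 2 of 3 and 2 of 2, beside 38.59% and 63.32%. With the first base of the consensus left out, 10 of 13 vehicle and 7 of 9 cAMP peaks held the sequence, beside 83.81% and 79.98% of the whole lists. The counts were the same with an A or G added after the consensus, beside 75.25% and 73.07%. They were also the same in the central 200 bp, for which no share of the whole lists is given here. All were as with the consensus. The search for the first 7 bases, chosen after seeing the data, found 13 of 13 vehicle and 9 of 9 cAMP peaks, beside 88.55% and 84.52% of the whole lists. No library could be left out, since each treatment had 1. No paired analysis was possible because each treatment had 1 library and no test was made. The unknown depth limits every statement on sites without a peak.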
